A study of Homo sapiens with 6 samples.

Results

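The genes described here are 49 genes of synaptic and neuronal structure, taken from 58302 Ensembl gene IDs counted in each library. They were listed by what their products do (vesicle release, synaptic scaffold, adhesion, growth cone and neurofilament), with earlier results of these data known, and all 49 matched 1 gene ID each through GENCODE release 44 symbols. RNA was sequenced from A375 cells, a human melanoma line, in 6 libraries. The 3 libraries with the genotype "Empty vector" and the 3 with the genotype "HMGB2OE" came from stable lines made with lentivirus and drug selection, for which the study's methods name blasticidin or puromycin without tying either to these lines. The labels name no other allele or treatment. HMGB2 OE cells carry a transgene for HMGB2, a DNA-bending chromatin protein. The study concerns mechanical confinement and neuronal gene programmes in melanoma, and the comparison here asks how the RNA of neuronal genes differed when HMGB2 was raised by a transgene. The study describes its 3 replicates per condition as technical, so p-values measure the spread between these libraries and not between independent transductions.

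Neurons release transmitter when a calcium sensor of the synaptotagmin family triggers SNARE proteins to fuse a vesicle with the membrane at the active zone. Across the cleft, neurexins and neuroligins hold the membranes together and scaffold proteins such as PSD-95 anchor the receptors. Neurofilaments stiffen the axon, and melanocytes, which share a neural crest origin with peripheral neurons and glia, are known to use some of the same adhesion and secretion genes.

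HMGB2 (chr4:173331376-173334432, GRCh38, minus strand) was at 7250, 7729 and 7562 normalized counts with the empty vector and at 15095, 16848 and 14609 in HMGB2 OE cells, each in the order of replicates 1, 2 and 3, which is the order used throughout. The difference was 1.05 on the log2 scale (SE 0.10, adjusted p = 4.4e-22), and the groups did not overlap. The tables do not separate transgene from endogenous reads. Fold changes and adjusted p-values are from DESeq2 unless edgeR is named. A normalized count is a read count divided by the library's DESeq2 size factor. Libraries held between 45925053 and 56755212 reads in genes. Replicates 1 and 2 of the empty vector differed from each other by a chi-square of 13.5 per degree of freedom over genes, and replicate 3 differed from them by 73.9 and 81.5, so no pair was the same library and replicate 3 stood apart. Pairs of HMGB2 OE libraries differed by 16.4 to 35.7. Members called with or without empty vector replicate 3 are given both ways. HMGB2 OE replicate 3 had the highest share of multimapped reads, 10.6%. Of 8 lineage markers, A375 cells carried CSPG4, S100B and MITF. MLANA, DCT and TYR had at most 11, 5 and 1 reads in any library. PMEL was at 49.6 to 67.0 normalized counts and kept 3.37% of the reads counted strand by strand. On the summed stranded columns PMEL had 1710, 1582 and 2178 against 1395, 1566 and 1725 normalized counts, and the groups overlapped. SOX10 was listed at 0 in the column for either strand. That column kept none of the 28863 to 56464 reads per library that its stranded columns held. Reads lost this way also lie in another gene, so those of PMEL and of SOX10 cannot be told apart from the other gene's. Of 10 markers of postmitotic neurons, 6 had at most 3 counts in every library and 3 of these had none. The 10 together summed to 89.9 to 101 normalized counts with the empty vector and 56.3 to 80.8 in HMGB2 OE cells. Most of this sum was GAD1, at 51.4 to 75.1 against 48.3 to 60.9, which kept 39.9% of its stranded reads. On the summed stranded columns GAD1 had 135, 150 and 176 against 132, 153 and 122 normalized counts, and the groups overlapped. RBFOX3, which encodes the neuronal nuclear antigen NeuN, had 20.2, 32.8 and 18.2 normalized counts with the empty vector and 0.908, 1.97 and 0 in HMGB2 OE cells (adjusted p = 3.5e-04). KRT5, an epithelial keratin, was at 5.05 and 11.5 in empty vector replicates 1 and 2 but at 279 in replicate 3 and at 200 to 289 in HMGB2 OE cells. The 4 markers of myelinating glia, none of them at 3 counts or fewer in every library, summed to 6154 to 7438 normalized counts with the empty vector and 7824 to 8021 in HMGB2 OE cells, which did not overlap. The part of these markers in the member results was not tested.

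HMGB2 OE cells had more RNA of NEFL, SNAP25, BASP1 and CNTN1 and less of SYT1. The first 4 rose by 1.42-fold to 2.1-fold and SYT1 fell to 0.57 of its level with the empty vector. In bulk RNA, fewer cells with a transcript and less of it per cell cannot be told apart. Of 46 members with an adjusted p, 4 were called higher (8.7%) and 1 lower (2.17%) at an adjusted p under 0.05. Over all 18836 genes tested, 2.29% were called higher and 2.64% lower, so the share of members called higher was above that background and the share called lower was near it. The genes were listed with earlier results of these data known, so this is a description and not a test. Without empty vector replicate 1, 1 of 46 members was called higher (2.17%), against 0.839% of all genes. The median log2 fold change of the tested members was 0.04, with 24 above 0 and 22 below, and that of all genes tested was 0.0027. By edgeR's quasi-likelihood test, 3 of 44 members were called higher against 1.28% of all genes, and 0 lower against 1.52%, where 5 members were lower at an unadjusted p under 0.05. At this unadjusted level DESeq2 had 9 members higher and 3 lower. The share of all genes at this level is not given, so unadjusted counts here and below have no background to be read against.

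**Figure D1:**
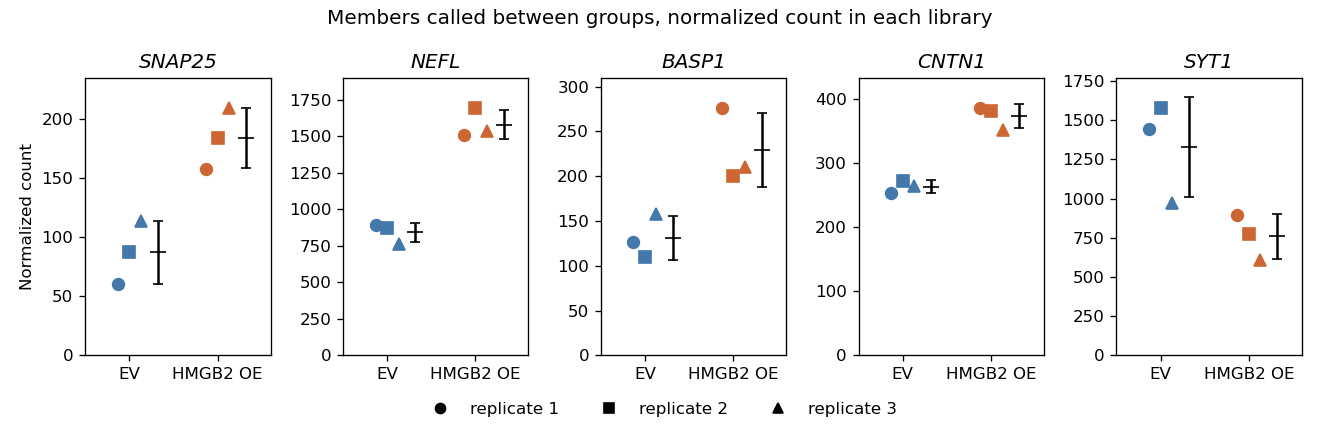
Normalized count (linear axis from 0) of the 5 called members in each of the 6 libraries, with replicates marked by shape and the group mean with its SD (n = 3) drawn as a bar. For NEFL, SNAP25, BASP1 and CNTN1 every HMGB2 OE library lies above every empty vector library, and for SYT1 every HMGB2 OE library lies below, with replicate 3 of the empty vector at 969 closest to the HMGB2 OE group.

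Levels between genes were compared per length, as reads per kilobase of merged exons and 1000000 reads in genes (RPKM). With the empty vector, the highest were SV2A, a glycoprotein of secretory vesicles, at 21.9 ± 2.64 RPKM (SD, n = 3) and L1CAM, a cell adhesion molecule of axons, at 21.0 ± 5.51, and these did not differ beyond their spread. SYT11 at 9.69 ± 1.31 and NLGN2 at 8.98 ± 2.14 came next and overlapped each other, followed by NLGN4X at 5.90 ± 0.897. In HMGB2 OE cells the same 5 genes were at 21.1 ± 0.706, 17.4 ± 2.40, 11.3 ± 0.957, 10.2 ± 1.08 and 6.67 ± 0.803 RPKM. HMGB2 itself stood at 61.9 ± 1.92 RPKM with the empty vector and 128 ± 11.5 in HMGB2 OE cells. By mean normalized count, 11 members lay at 1000 or more, 14 from 100 to 1000, 17 from 10 to 100 and 7 under 10. The lowest per length were SYT4, NEFH, NRXN2 and LRRTM2, from 0.013 down to 0.0011 RPKM with the empty vector. Merged exons make some genes look long: with the length of the canonical transcript, chosen after seeing the data, SNAP25 was at 0.840 RPKM rather than 0.0847 and HOMER2 at 7.52 rather than 0.999 with the empty vector.

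**Figure D2:**
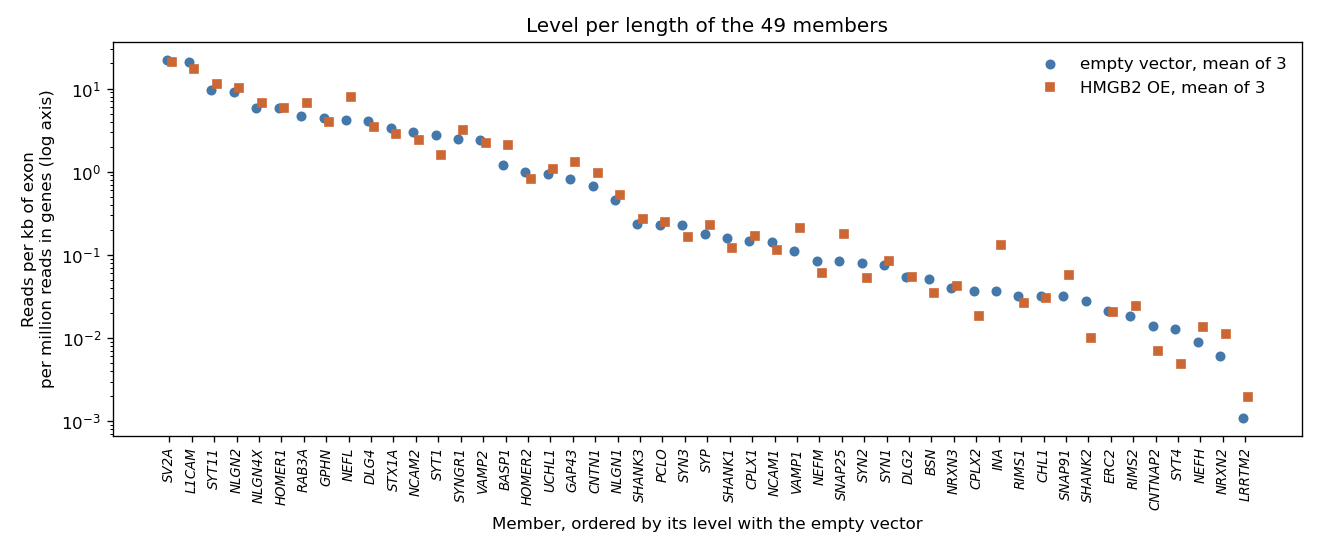
Level per length of the 49 members, in reads per kilobase of merged exons and 1000000 reads in genes on a log axis, as the mean of 3 libraries per group, ordered by the empty vector. Levels run from 21.9 for SV2A to 0.0011 for LRRTM2, and the HMGB2 OE points lie visibly above the empty vector for NEFL, BASP1 and SNAP25 and below it for SYT1. Larger gaps belong to some uncalled members of few reads, such as INA (0.037 to 0.13) and SHANK2 (0.028 to 0.010).

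The release machinery held a pair of called genes that went opposite ways. Of 9 SNARE and calcium sensing genes, 8 were tested, with 1 higher, 1 lower and a median log2 fold change of 0.04. SNAP25 (chr20:10172395-10308258, plus strand), the plasma membrane SNARE cut by botulinum toxin A, had 60.6, 87.7 and 114 normalized counts with the empty vector and 158, 184 and 209 in HMGB2 OE cells. All HMGB2 OE libraries were above all empty vector libraries, and replicate 3 was the highest of each group. Its log2 fold change was 1.07 (SE 0.26, 95% interval 0.57 to 1.58, adjusted p = 0.0015; edgeR adjusted p = 0.045). Without empty vector replicate 1 the adjusted p was 0.0549 and without HMGB2 OE replicate 3 it was 0.0570.

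SYT1 (chr12:78863993-79452008, plus strand), the fast calcium sensor of transmitter release, had 1444, 1577 and 969 normalized counts with the empty vector and 892, 775 and 607 in HMGB2 OE cells. The groups did not overlap, with empty vector replicate 3 well below the other empty vector libraries and close to HMGB2 OE replicate 1. The log2 fold change was -0.81 (SE 0.20, 95% interval -1.21 to -0.41, adjusted p = 0.0033), and without empty vector replicate 3 it was -0.99 (adjusted p = 1.2e-09). The call was lost in edgeR (adjusted p = 0.073), without empty vector replicate 1 (0.0605) or 2 (0.0655) and without HMGB2 OE replicate 3 (0.0558), with the gene lower in each.

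SYT11, a synaptotagmin that does not bind calcium and that many tissues express, had 2643, 2785 and 2175 normalized counts with the empty vector and 2965, 3181 and 2772 in HMGB2 OE cells, and the groups overlapped narrowly (log2 fold change 0.23, SE 0.13, adjusted p = 0.431). SYT11 was called higher in 2 of 14 alternative analyses. These were the fits with a term for each replicate number (adjusted p = 0.0465) and for libraries numbered 3 (adjusted p = 0.0135). The partner SNAREs of SNAP25 did not pass the test: the log2 fold change was -0.26 (SE 0.16, adjusted p = 0.481) for STX1A, syntaxin 1A of the plasma membrane, and -0.13 (SE 0.19, adjusted p = 0.869) for VAMP2, the vesicle SNARE. STX1A kept 66.6% of the reads counted strand by strand. VAMP1, a vesicle SNARE close to VAMP2 that overlaps TAPBPL on the opposite strand, kept 43.3% and had 13.3 to 25.8 normalized counts with the empty vector against 32.6 to 39.4 in HMGB2 OE cells (log2 fold change 0.95, SE 0.42, adjusted p = 0.237). On the summed stranded columns VAMP1 had 49.5, 47.8 and 74.5 against 70.8, 70.8 and 56.4 normalized counts, the groups overlapped, and the log2 fold change was 0.21 (SE 0.30, adjusted p = 0.857). The complexins CPLX1 and CPLX2, which clamp the assembled SNAREs, were at a mean of 18.7 and 9.89 normalized counts over the 6 libraries. SYT4 had 0, 0 and 8 reads with the empty vector and 0, 1 and 2 in HMGB2 OE cells and got no adjusted p. A count of 0 allows up to 3 reads, for counting error only.

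No vesicle protein was called: of 8 tested, 0 passed in either direction by DESeq2 or by edgeR and 2 had a DESeq2 unadjusted p under 0.05, the median log2 fold change was 0.27, and 5 were above 0. RAB3A (chr19:18196784-18204042, minus strand), a small GTPase of secretory vesicles, had 417, 524 and 337 normalized counts with the empty vector and 627, 658 and 554 in HMGB2 OE cells. Every HMGB2 OE library was above every empty vector library, yet the log2 fold change of 0.52 (SE 0.18) had an adjusted p of 0.0661 in DESeq2, which became 0.0094 without empty vector replicate 2. RAB3A was called in 4 of 14 alternative analyses, with adjusted p from 5.8e-04 to 0.378. SYNGR1 (chr22:39349925-39385575, plus strand), the vesicle membrane protein synaptogyrin 1, had 835, 798 and 942 against 1015, 1181 and 1137 normalized counts. These groups did not overlap either, and the log2 fold change of 0.37 (SE 0.13) had an adjusted p of 0.0614, or 0.44 and 0.0025 without empty vector replicate 3.

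SV2A was close between groups, at 5544, 5683 and 4612 normalized counts with the empty vector and 5186, 5144 and 5013 in HMGB2 OE cells. The groups overlapped, and the 95% interval of the log2 fold change ran from -0.27 to 0.18 around -0.05 (adjusted p = 0.929). The synapsins, which tether vesicles to actin, were lower in level, at means of 15.2, 21.2 and 100 normalized counts for SYN1, SYN2 and SYN3, and their log2 fold changes of 0.17, -0.59 and -0.45 did not pass. SYP, the vesicle marker synaptophysin, had 55.6, 62.9 and 67.6 against 78.1, 72.9 and 88.9 normalized counts, which did not overlap but did not pass (log2 fold change 0.37, SE 0.26, adjusted p = 0.590). SYN1 kept 48.2% of its reads, with 11.1, 16.8 and 15.0 against 20.9, 11.8 and 15.8 normalized counts in overlapping groups, and 23.3% of its 50-base words also lie in another annotated gene, so its count is uncertain.

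Active zone genes, which dock vesicles at release sites, were low, and 0 of 5 were called by DESeq2 or edgeR, with 0 at an unadjusted p under 0.05. PCLO, the giant scaffold piccolo, was the highest at a mean of 276 normalized counts, with 248 to 279 in the empty vector libraries and 284 to 286 in HMGB2 OE cells (log2 fold change 0.09, SE 0.15). BSN (bassoon) and RIMS1 were at means of 35.7 and 19.1 normalized counts with log2 fold changes of -0.56 and -0.26, and the group's median was -0.04.

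Of 7 trans-synaptic adhesion genes, 6 were tested and 0 were called by DESeq2 or edgeR, 0 had an unadjusted p under 0.05 and the members had a median log2 fold change of 0.19. The neuroligins carried most of the counts. NLGN2, the neuroligin of inhibitory synapses, had 2981, 2880 and 1908 normalized counts with the empty vector and 3043, 3162 and 2654 in HMGB2 OE cells, and the groups overlapped through HMGB2 OE replicate 3. NLGN4X had 2366, 2429 and 1856 against 2541, 2764 and 2240 and overlapped likewise. In both genes replicate 3 was the lowest library of its group, and the log2 fold changes of 0.19 (SE 0.17) and 0.18 (SE 0.14) were 0.01 and 0.07 without empty vector replicate 3. That fit kept the low HMGB2 OE replicate 3. With a term for libraries numbered 3 the values were 0.21 (adjusted p = 0.0715) and 0.19 (adjusted p = 0.0666). In replicates 1 and 2 alone they were 0.08 (adjusted p = 0.544) and 0.15 (adjusted p = 0.245). NLGN1 had 407 to 427 normalized counts with the empty vector and 428 to 560 in HMGB2 OE cells (log2 fold change 0.20, adjusted p = 0.633). NLGN4X shares 12% of its 50-base words with a near-identical paralog, so reads from those stretches are uncertain. The neurexins NRXN2 and NRXN3, the presynaptic partners of neuroligins, and CNTNAP2 were at means of 6.13, 32.1 and 8.63 normalized counts, and LRRTM2 had 1, 0 and 0 reads against 2, 0 and 0.

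The postsynaptic scaffold had 0 of 8 genes called by DESeq2 or edgeR and 1 at an unadjusted p under 0.05 in DESeq2, and 6 of the 8 log2 fold changes were below 0 (median -0.20). DLG4 (chr17:7187187-7219841, minus strand), which encodes PSD-95, had 2474, 2617 and 1206 normalized counts with the empty vector and 1989, 1979 and 1339 in HMGB2 OE cells. Replicate 3 was the lowest library of both groups by a wide margin and made the groups overlap. The log2 fold change was -0.25 (SE 0.26, adjusted p = 0.779), and -0.52 (adjusted p = 0.0039) without empty vector replicate 3. That last fit kept the low HMGB2 OE replicate 3. With a term for libraries numbered 3 the value was -0.20 (adjusted p = 0.167). It was -0.36 (adjusted p = 2.9e-04) in replicates 1 and 2 alone. HOMER2, an adaptor between metabotropic receptors and SHANK proteins, had 791, 808 and 621 against 644, 600 and 598 normalized counts. Its log2 fold change of -0.27 (adjusted p = 0.386) was -0.38 (adjusted p = 0.0168) without empty vector replicate 3. It was -0.26 (adjusted p = 0.0826) with the term and -0.36 (adjusted p = 0.0288) in replicates 1 and 2 alone. Its relative HOMER1 was level, at 1707 to 1863 normalized counts with the empty vector and 1770 to 1822 in HMGB2 OE cells, with a 95% interval of the log2 fold change from -0.18 to 0.21. GPHN, gephyrin of inhibitory synapses, had a log2 fold change of -0.16 (SE 0.12).

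SHANK2 (log2 fold change -1.46, SE 0.50) had the largest difference of the scaffold genes at a low count, with 30.3, 23.0 and 26.8 normalized counts with the empty vector and 10.9, 6.89 and 11.3 in HMGB2 OE cells. The groups did not overlap, and the adjusted p of 0.0642 became 0.0328 once genes without 10 counts in 3 libraries were left out. SHANK2 was called in only this 1 of 14 alternative analyses, where its adjusted p reached 0.539.

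Of 5 adhesion molecules of the immunoglobulin family, CNTN1 was called higher and the other 4 were not called (median log2 fold change -0.27). CNTN1 (chr12:40692439-41072415, plus strand), the GPI-anchored axonal protein contactin 1, had 253, 272 and 264 normalized counts with the empty vector and 385, 381 and 351 in HMGB2 OE cells. Both groups were tight and did not overlap, and the log2 fold change was 0.50 (SE 0.14, 95% interval 0.23 to 0.78, adjusted p = 0.0119; edgeR adjusted p = 0.0446). It was 0.51 (adjusted p = 0.0145) without empty vector replicate 3, and leaving out any other library ended the call: the adjusted p was 0.268 without empty vector replicate 1, 0.129 without its replicate 2, and 0.280, 0.230 and 0.0931 without HMGB2 OE replicates 1, 2 and 3.

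L1CAM (chrX:153861514-153886173, minus strand) had 8925, 8718 and 5452 normalized counts with the empty vector and 6344, 7216 and 5644 in HMGB2 OE cells. Empty vector replicate 3 was the lowest of all 6 libraries, so the groups overlapped, and the log2 fold change was -0.27 (SE 0.19, adjusted p = 0.598), or -0.46 (adjusted p = 2.9e-04) without it. That last fit kept HMGB2 OE replicate 3, the lowest of its group. With a term for libraries numbered 3 the value was -0.24 (adjusted p = 0.0362). In replicates 1 and 2 alone it was -0.38 (adjusted p = 7.7e-06). NCAM2 (chr21:20998409-21543329, plus strand), a neural cell adhesion molecule of the olfactory system, had 1263, 1373 and 1178 against 1047, 1016 and 996 normalized counts. Its groups did not overlap, and its log2 fold change of -0.32 (SE 0.11, adjusted p = 0.0803) became -0.37 (adjusted p = 0.0074) without empty vector replicate 3. It was -0.32 (adjusted p = 0.0040) with the term and -0.35 (adjusted p = 0.0076) in replicates 1 and 2 alone. NCAM1 and CHL1 were at means of 82.1 and 18.3 normalized counts, with log2 fold changes of -0.30 and -0.06, and CHL1 was at 0.18 on the summed stranded columns.

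The axon, growth cone and neurofilament genes held the other 2 called genes and the highest median, 0.74 over 6 tested. NEFL (chr8:24950955-24956721, minus strand), the light chain of neurofilaments, had 889, 872 and 764 normalized counts with the empty vector and 1509, 1693 and 1533 in HMGB2 OE cells. The lowest HMGB2 OE library was far above the highest empty vector library. The log2 fold change was 0.91 (SE 0.12, 95% interval 0.67 to 1.14, adjusted p = 1.4e-11), a rise of 1.87-fold, and NEFL was called in 14 of 14 alternative analyses, with adjusted p from 3.2e-21 to 0.0036. An antisense long noncoding RNA holds 18.8% of its 50-base words, and 97.7% of its reads were kept.

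BASP1 (chr5:17065598-17276843, plus strand), a membrane-bound growth cone protein, had 126, 110 and 158 normalized counts with the empty vector and 276, 200 and 210 in HMGB2 OE cells. The groups did not overlap, with HMGB2 OE replicate 1 the highest (log2 fold change 0.81, SE 0.22, 95% interval 0.38 to 1.24, adjusted p = 0.0079). Without empty vector replicate 3 it was 0.96 (adjusted p = 4.6e-04), and the call was lost in edgeR (adjusted p = 0.063), without empty vector replicate 1 (0.123) or 2 (0.149) and without HMGB2 OE replicate 1 (0.252). GAP43 (chr3:115623510-115721490, plus strand), which like BASP1 is a growth cone substrate of protein kinase C, had 92.9, 79.7 and 63.3 against 131, 126 and 118 normalized counts. Its groups did not overlap, and its log2 fold change of 0.67 (SE 0.23) had an adjusted p of 0.0713, which was 0.135 without empty vector replicate 3 and 0.0393 once genes without 10 counts in 3 libraries were left out. UCHL1, the neuronal ubiquitin hydrolase PGP9.5, was at 73.5 to 152 normalized counts with the empty vector and 107 to 141 in HMGB2 OE cells (log2 fold change 0.20, SE 0.30). Empty vector replicate 3 was its highest library, and the log2 fold change was 0.57 (adjusted p = 0.137) without it.

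The other neurofilament genes were barely counted. INA, alpha-internexin, had 2.02, 4.43 and 11.8 normalized counts with the empty vector and 42.7, 6.89 and 14.6 in HMGB2 OE cells, so its log2 fold change of 1.83 (SE 0.83, adjusted p = 0.246) rested on HMGB2 OE replicate 1. It was 0.83 (adjusted p = 0.944) without that library and 2.72 (adjusted p = 0.0254) without empty vector replicate 3. NEFH, the heavy chain, had 0, 1 and 4 reads against 5, 1 and 2. NEFM (chr8:24913758-24919098, plus strand), the medium chain, had 20, 26 and 3 reads with the empty vector and 22, 8 and 5 in HMGB2 OE cells in the column for either strand, which kept 10.5% of the reads counted strand by strand. Summed over the stranded columns it had 147, 135 and 110 reads against 155, 137 and 119. On that sum the groups overlapped and the log2 fold change was 0.08 (SE 0.20, adjusted p = 0.927), whereas the column for either strand gave -0.47 (SE 0.77, adjusted p = 0.884). The antisense noncoding RNA ENSG00000272163 shares 26.4% of the exon bases of NEFM and had 128 to 150 stranded reads with the empty vector and 160 to 165 in HMGB2 OE cells. The libraries are not stranded, so reads of NEFM and of this antisense gene cannot be told apart.

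**Figure D3:**
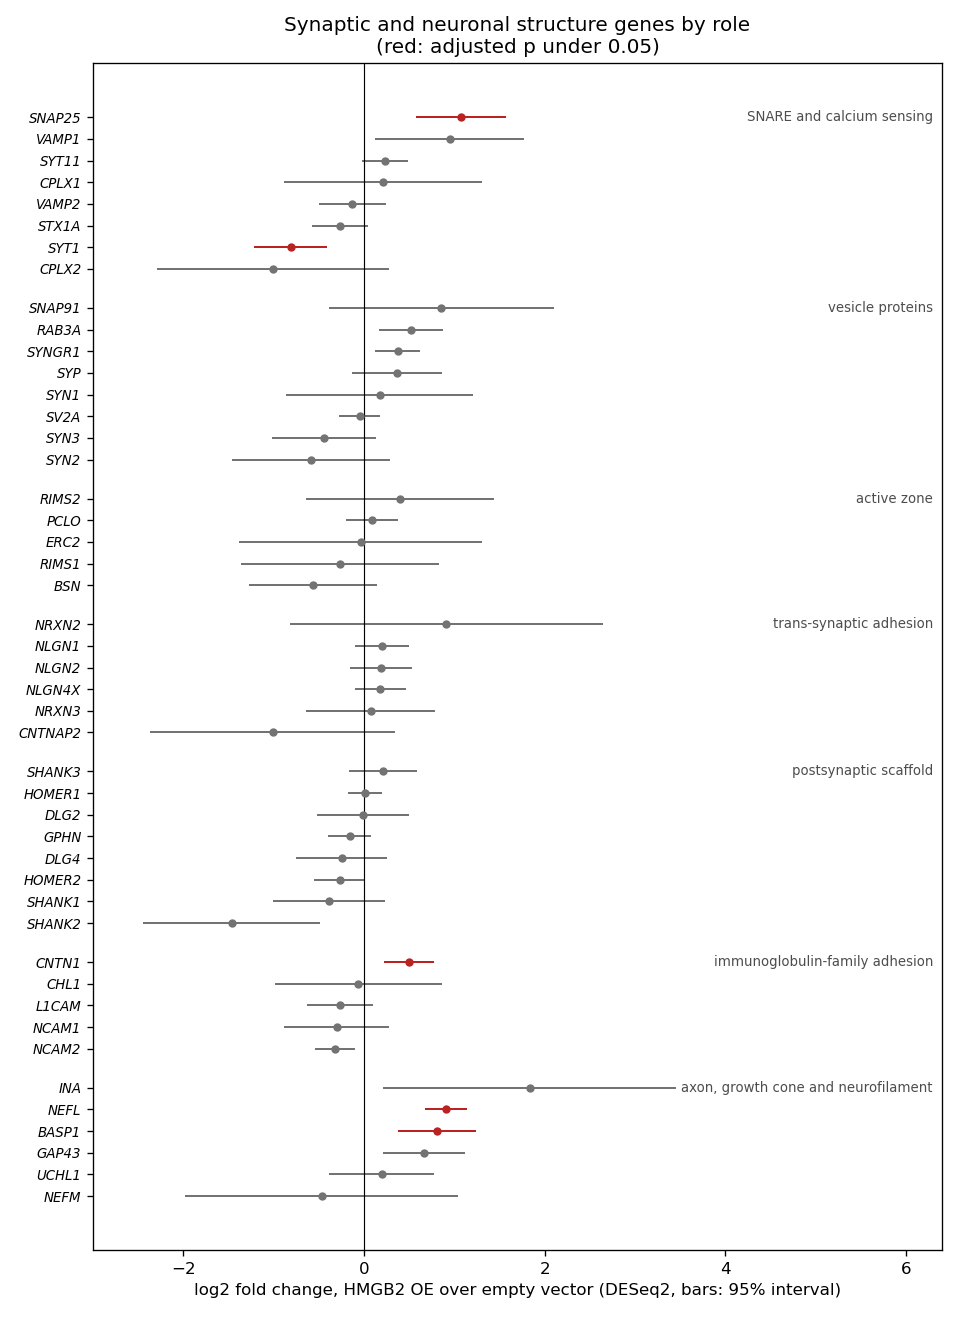
DESeq2 log2 fold change of HMGB2 OE over empty vector cells for the 46 members with an adjusted p, grouped by role, with bars for the 95% interval. Red marks the 5 called members, with SNAP25, CNTN1, NEFL and BASP1 to the right of 0 and SYT1 to the left, and the widest bars belong to members of few reads such as INA and NRXN2.

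Promoter sequence is shown for the called members that the RefSeq promoter table (GRCh38.p14) holds, since SYT1 and BASP1 moved in opposite directions. Each run is the 250 bases before a start site, 5′ to 3′ on the plus strand. Capitals mark matches on either strand to the GC box (GGGCGG) and the CCAAT box (CCAAT), which do not overlap each other here.
SYT1, chr12:78864524-78864773: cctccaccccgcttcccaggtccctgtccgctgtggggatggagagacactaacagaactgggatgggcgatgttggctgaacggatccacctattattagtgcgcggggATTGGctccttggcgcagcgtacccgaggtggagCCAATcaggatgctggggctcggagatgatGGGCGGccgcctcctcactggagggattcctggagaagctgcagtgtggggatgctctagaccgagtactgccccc
BASP1, chr5:17216573-17216822: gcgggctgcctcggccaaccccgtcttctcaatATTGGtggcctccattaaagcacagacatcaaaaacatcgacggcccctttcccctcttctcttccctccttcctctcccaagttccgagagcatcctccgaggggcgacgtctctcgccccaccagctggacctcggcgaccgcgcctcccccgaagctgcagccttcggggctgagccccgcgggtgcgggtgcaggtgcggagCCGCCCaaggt
CNTN1, chr12:40827934-40828183: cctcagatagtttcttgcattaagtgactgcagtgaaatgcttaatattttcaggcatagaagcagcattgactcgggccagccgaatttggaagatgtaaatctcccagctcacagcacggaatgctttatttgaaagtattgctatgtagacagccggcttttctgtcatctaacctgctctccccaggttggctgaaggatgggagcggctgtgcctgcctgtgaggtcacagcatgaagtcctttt
SYT1 and BASP1 each held 1 GC box, with 2 CCAAT boxes in SYT1 and 1 in BASP1, at a GC content of 62% and 65.6%. The CNTN1 start shown held neither motif at a GC content of 47.2%, and the other CNTN1 start in the table (chr12:40908107-40908356) held 1 CCAAT box at 36.4%. A GC box was in 42.6% of all 35116 promoters of this length and in 46.2% of the 65 promoters of 38 members in the table, and a CCAAT box in 32% and 26.2%. The TATA box (TATAAA) was in 10.7% of all and 6.15% of member promoters, and the AP-1 site (TGACTCA) in 4.2% and 6.15%. The median GC content was 58% over all promoters and 63.6% over those of members.

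Of 29 members with a mean of 50 or more normalized counts, empty vector replicate 3 lay below both other empty vector libraries for 19 (65.5%) and above both for 8, against 43.3% below and 43.8% above over 13333 genes of that level. Its median log2 ratio to the mean of the other 2 was -0.32 over these members and 0.0051 over those genes. Without this library, 6 of 42 members were called higher (14.3%) against 8.31% of all genes, and 5 lower (11.9%) against 9.46%. The 5 members called with all libraries were called in this fit too, joined by SYNGR1 and INA on the higher side and by DLG4, HOMER2, L1CAM and NCAM2 on the lower side. With all 6 libraries and a mean of at least 10 normalized counts, the groups did not overlap for 11 of 42 members on the higher side (26.2%) and 4 on the lower side (9.52%), where 11.4% of genes did so on the higher side and 11.4% on the lower. Among members called in neither fit, the log2 fold change without this library was 0.13 for SYT11, 1.26 for VAMP1, -0.30 for VAMP2, -0.13 for SV2A, -0.54 for NCAM1 and -0.93 for NEFM, and none of these passed the test. CSPG4, a melanoma surface proteoglycan outside the 49 genes, was likewise lower in this library, at 73844, 73004 and 42385 normalized counts with the empty vector against 45253, 42954 and 33872 in HMGB2 OE cells.

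**Figure D4:**
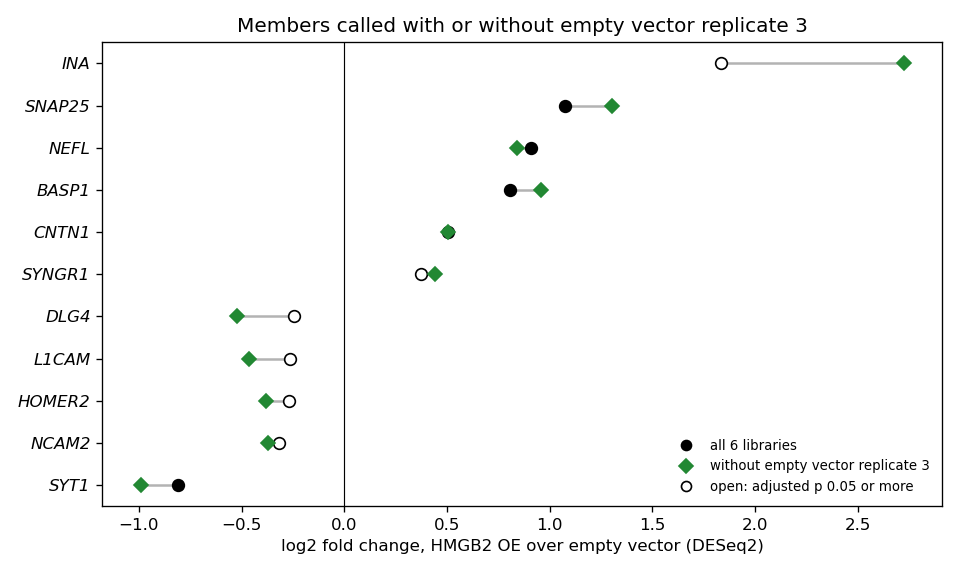
DESeq2 log2 fold change of HMGB2 OE over empty vector cells with all 6 libraries (circles) and without empty vector replicate 3 (green diamonds), for the 11 members called in either fit, with open symbols at an adjusted p of 0.05 or more. All 11 diamonds are filled, DLG4 moves from -0.25 to -0.52 and L1CAM from -0.27 to -0.46, and no member crosses 0. Both fits kept HMGB2 OE replicate 3.

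Relatives of these genes were read from a wider list of 137 synaptic, adhesion and cytoskeletal genes that did not include the 49. Of 118 tested, 6 were called higher (5.08%) and 1 lower (0.847%), against 2.29% and 2.64% of all genes, and the median log2 fold change was 0.09. MAP1A, a microtubule-associated protein of dendrites, rose from 160 ± 9.47 to 301 ± 38.4 normalized counts (SD, n = 3; log2 fold change 0.91, SE 0.18, adjusted p = 2e-05). CLSTN3, a calsyntenin of the postsynaptic membrane, rose by 0.82 on the log2 scale, and SYNGR3, a relative of SYNGR1, by 0.75. ALCAM, an adhesion molecule of the immunoglobulin family, and MARCKSL1, a relative of the growth cone protein MARCKS, rose by 0.33 and 0.36. MAP2, the dendritic microtubule protein, was named after its values were seen, since its mean was under 50 normalized counts. It rose from 17.9 ± 5.04 to 64.2 ± 6.35 (log2 fold change 1.84, SE 0.36, adjusted p = 3.6e-05). CNTN4, a contactin like CNTN1, fell from 76.0 ± 24.1 to 32.6 ± 8.31 (log2 fold change -1.22, SE 0.35, adjusted p = 0.0161). Its call was lost in edgeR (adjusted p = 0.0711), without empty vector replicate 1 (0.422) or 2 (0.0857) and without HMGB2 OE replicate 2 (0.195) or 3 (0.132), with the gene lower in each. MAP1A and MAP2 were called without any single library (adjusted p at most 0.0141 and 0.0117). ALCAM, MARCKSL1 and SYNGR3 kept the call only without empty vector replicate 3 among the fits that left out 1 library, and CLSTN3 lost it without empty vector replicate 2 (0.0857) and without HMGB2 OE replicates 1 (0.0532) or 2 (0.206).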

How the data were processed

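RNA of 6 A375 libraries, 3 per genotype, was enriched for poly(A) and sequenced without keeping strand. Per the labels, reads were converted with bcl2fastq 2.20, checked with FastQC, trimmed with Trimmomatic and aligned with STAR to GRCh38; the STAR version and the annotation are not given in the sources used here. The deposited tables hold whole-number counts of reads, not normalized, in STAR's gene count layout. A read is counted where it maps to 1 place and lies in 1 gene, so 10.7% to 11.4% of reads were set aside as ambiguous and 2.58% to 10.6% as multimapped. The column for either strand was used, and the sum of the stranded columns was an alternative. The 4 summary lines stayed out of library sizes and tests.

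Groups came from the genotype labels. DESeq2 1.42.0 (default Wald test, unshrunken fold changes, 95% intervals as 1.96 SE) was fitted to all genes, adjusted by Benjamini-Hochberg, with an adjusted p under 0.05 as the call. edgeR 4.0.16 (quasi-likelihood, TMM) and the other alternatives described under the limits were run beside it, 14 in all, and the fits were tested on simulated data. IDs were named by GENCODE 44 (57532 of 58302). The 49 genes and all lists were chosen with earlier results of these data known. Every library is given for HMGB2, for members called in any fit, for members keeping under 50% of their stranded reads where a library had at least 100 of them, and for the 5 highest per length; up to 3 examples per role and the called relatives with a mean of 50 or more are given besides, and further members were named after their values were seen. Marker lists for astrocytes, fibroblasts, leukocytes and epithelium summed to 18.6 to 25.8, 3598 to 5532, 0 to 5.31 and 515 to 681 normalized counts with the empty vector and to 25.4 to 36.0, 5099 to 6624, 0 and 531 to 1056 in HMGB2 OE cells. The astrocyte and leukocyte sums are undercounts, since GFAP kept 12.8% and CD68 kept 0.299% of their stranded reads. On the summed stranded columns GFAP was at 125 to 148 normalized counts with the empty vector and 187 to 206 in HMGB2 OE cells. CD68 was at 169 to 271 and 215 to 249.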

Additional observations from a re-analysis of the deposited data

How the results depend on the processing

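NEFL and HMGB2 kept their call and direction in all 14 alternatives. Of 258 values of the 19 members given in every library, 215 kept direction and side of the threshold, 26 gained the call, 15 lost it and 2 changed sign: SV2A at 0.0080 without empty vector replicate 2 (range -0.13 to 0.0080 with 1 library left out), and NEFM at 0.0841 with the stranded columns summed. Replicate numbers 1 and 2 did not pair the libraries: same-numbered deviations correlated at 0.091 and 0.14, and empty vector replicate 1 correlated best with HMGB2 OE replicate 2 (0.21). The libraries numbered 3 correlated with each other at 0.35, the highest value. With replicates 1 and 2 of the other group they correlated at -0.27 to -0.14.

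The members called higher numbered 7 with the replicate block, 8 with a term for libraries numbered 3, and 1 to 6 with 1 library left out. Those called lower numbered 0 of 44 with edgeR (against 1.52% of all genes) and 2 of 45 with the 10-count filter (4.44%, against 3.15%). They numbered 2 of 32 with the replicate block (6.25%, against 6.46%) and 3 of 40 with the third-replicate term (7.5%, against 8.61%). In replicates 1 and 2 alone they numbered 5 of 32 (15.6%, against 9.44%). With 1 library left out they numbered 0 to 5 (0% to 11.9%, against 1.13% to 9.46%). Where DESeq2 called 0, 2 or 3 members were lower at an unadjusted p under 0.05, and 5 by edgeR. All genes called higher numbered 215 with edgeR, 886 with the replicate block, 1374 with the third-replicate term, 1203 in replicates 1 and 2 alone and 155 to 1334 with 1 library left out, against 432; those called lower numbered 255, 940, 1359, 1418 and 208 to 1520, against 498. The wider list had 3 higher with edgeR, 3 without independent filtering, 10 with the replicate block, 18 with the third-replicate term, 13 in replicates 1 and 2 alone and 2 to 15 with 1 library left out; lower, it had 0 (edgeR, 5 at an unadjusted p under 0.05), 5, 6, 8 and 0 to 9 for edgeR, the replicate block, the third-replicate term, replicates 1 and 2 alone and 1 library left out, with 2 to 5 at an unadjusted p under 0.05 where DESeq2 called 0. Shares of the wider list tested in each alternative are not given here. The cause of the differences between alternatives was not tested. The median log2 fold change of tested members ran from 0.0058 to 0.12. With 3 libraries a group, the 24 members under 100 normalized counts had wide intervals, such as -0.86 to 1.21 for SYN1.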
